A study of Mus musculus with 12 samples.

Results

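The Müllerian identity transcription factors are 9 genes, Pax8, Pax2, Sox17, Wt1, Emx2, Lhx1, Hoxa9, Hoxa10 and Foxa2, taken by symbol from a count table of 35509 genes. All 9 were in the table. The 12 libraries came from the distal Fallopian tube of 6 untreated wild-type mice at 4 weeks of age, on a mixed background, and each mouse gave 1 library of large clones and 1 of small clones. Both groups carried the MADM RG;GR alleles. MADM (mosaic analysis with double markers) colours single cells and their descendants through recombination between chromosomes, so that a clone can be recognised. Each library pooled 200 cells cut out by laser, so it holds the mean of many cells and not 1 clone. The driver of the recombination and the size that separates large from small clones are not given in the sources used here.

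The Müllerian duct is the embryonic tube from which the oviduct, the uterus and the upper vagina form. Lhx1, Emx2, Pax2 and Wt1 act early, when the duct is laid down beside the kidney primordium, while genes of the Hox A cluster are used in an ordered way along the tract, with Hoxa9 assigned to the future oviduct and Hoxa10 to the uterus. In the mature oviduct, PAX8 marks secretory cells, SOX17 is found in the epithelium of the tract, and FOXA2 is best known for its part in uterine gland formation.

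RefSeq start sites were matched for 7 of the 9 genes, with 12 start sites in all. Wt1 and Sox17 had no entry. The 250 bases before the start site are shown for Pax8, which had the most counts of the 7, and for Hoxa9 and Hoxa10, the only adjacent pair among the 9, whose counts were far apart. Capitals mark matches, on either strand, to the TATA box core TATAAA, the GC box GGGCGG or the CCAAT box CCAAT, which do not overlap each other here. The coordinates are of GRCm38.p6 and all 4 sequences lie on the minus strand.
Pax8, chr2:24475600-24475849: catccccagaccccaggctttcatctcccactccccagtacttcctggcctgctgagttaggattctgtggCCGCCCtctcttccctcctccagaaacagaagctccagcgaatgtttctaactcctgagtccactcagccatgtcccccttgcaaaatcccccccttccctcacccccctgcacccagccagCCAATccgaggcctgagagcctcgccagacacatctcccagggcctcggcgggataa
Hoxa9, chr6:52227371-52227620: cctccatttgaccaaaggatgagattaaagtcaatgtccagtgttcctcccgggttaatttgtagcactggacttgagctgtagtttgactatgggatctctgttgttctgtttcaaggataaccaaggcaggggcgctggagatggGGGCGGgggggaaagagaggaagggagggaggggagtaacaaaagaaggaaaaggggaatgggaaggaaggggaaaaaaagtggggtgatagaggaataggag
Hoxa10, start site 1, chr6:52240855-52241104: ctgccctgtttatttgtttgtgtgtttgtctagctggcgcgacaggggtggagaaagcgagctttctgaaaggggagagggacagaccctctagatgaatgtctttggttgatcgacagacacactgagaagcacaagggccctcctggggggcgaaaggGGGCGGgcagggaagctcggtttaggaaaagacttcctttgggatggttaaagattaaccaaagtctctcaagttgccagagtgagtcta
Hoxa10, start site 2, chr6:52234940-52235189: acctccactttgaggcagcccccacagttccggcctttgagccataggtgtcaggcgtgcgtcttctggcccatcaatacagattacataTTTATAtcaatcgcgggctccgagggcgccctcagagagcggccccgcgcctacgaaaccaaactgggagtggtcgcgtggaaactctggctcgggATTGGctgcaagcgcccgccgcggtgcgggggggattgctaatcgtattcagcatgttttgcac

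The Pax8 window held 1 GC box and 1 CCAAT box, the Hoxa9 window 1 GC box, and the windows of Hoxa10 1 GC box in one and 1 TATA box core and 1 CCAAT box in the other. Among all 32851 promoter windows of the same length, 12.4% held the TATA box core, 32.7% the GC box and 33.8% the CCAAT box. The Pax8 window had 6 CpG dinucleotides, the Hoxa9 window 3, the first Hoxa10 window 7 and the second 20, against a median of 6 over all windows. A match describes the letters of the window and no more.

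Libraries held 3057979 to 4227129 expected counts, and a count of 0 allows up to 3 counts, which is 0.585 to 1.33 CPM (a count divided by its library's TMM-adjusted size, in the usual unit). Such limits hold for counting error alone: the reads were amplified and carry no molecular identifiers. In 5 libraries, large clones of mice 1, 2 and 6 and small clones of mice 3 and 6, chemoreceptor genes (receptors for odours, pheromones, trace amines and tastes) took 7.87% to 11.0% of counts, against 0.843% to 4.17% in the other 7. The division at 5% was set after the values were seen. The 10 ciliated-cell marker genes summed to 185 to 627 CPM in those 5 libraries and to 1209 to 5837 CPM in the other 7, the 10 secretory-cell markers to 623 to 1584 and 1692 to 9340 CPM, and the 6 epithelial markers to 244 to 1314 and 3920 to 8666 CPM. Not every marker followed its sum. The secretory marker Slc1a3 had medians of 175 CPM in the 5 and 86.0 CPM in the 7, and Anpep of 4.88 and 1.02 CPM. The ciliated marker Mcidas had close medians, 8.24 and 8.66 CPM. Apart from Slc1a3 and Anpep, no listed secretory, ciliated or epithelial marker had a higher median in the 5. The tissue check held: Ovgp1, the oviduct's secreted glycoprotein, was present in 12 of 12 libraries at 350 to 7829 CPM, and Epcam, an epithelial adhesion molecule, in 12 of 12. Both secretory and ciliated markers were present in every library. In such pools, fewer cells of a type and less RNA per cell cannot be told apart.

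Wt1 was the most abundant of the 9 genes and the only one counted in all 12 libraries, as 30.7% of the genes with any count were. Pax8 followed. Hoxa10 was close to absent, with 7 counts in all libraries together, and the other 6 genes were each missing from 2 to 5 libraries. Of the 9, 3 had enough counts to be tested between large and small clones, and none of these passed the threshold of an adjusted p under 0.05. Large and small clones overlapped for all 9 genes, so 0 of 9 separated the groups, against 0.0645% of the tested genes.

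All 9 genes are protein-coding. By the table's coordinates, Wt1 (ENSMUSG00000016458), Pax8 (ENSMUSG00000026976) and Foxa2 (ENSMUSG00000037025) lie on chromosome 2, Pax2 (ENSMUSG00000004231) and Emx2 (ENSMUSG00000043969) on chromosome 19, Sox17 (ENSMUSG00000025902) on chromosome 1, Lhx1 (ENSMUSG00000018698) on chromosome 11, and Hoxa9 (ENSMUSG00000038227) and Hoxa10 (ENSMUSG00000000938) on chromosome 6.

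Wt1 encodes a zinc-finger factor of the kidney, gonad and coelomic lining. In large clones it ran from 12.4 to 319 CPM with a median of 122, and in small clones from 61.4 to 143 CPM with a median of 85.1. The lowest and the highest of the 12 libraries were both large clones, of mice 3 and 2, so the small clones lay within the range of the large ones. Mean levels were 129 ± 104 CPM (SD, n = 6) and 97.2 ± 31.3 CPM (SD, n = 6). The gene was higher in the large clones of 4 of 6 mice. Wt1 also marks the mesothelium, the layer that covers the tube. Of 6 mesothelial markers, which include Wt1 and the secretory gene Msln, Msln was counted in 12 of 12 libraries at 1.95 to 382 CPM, with 1.95 to 13.6 CPM in the 5 libraries and 11.1 to 382 CPM in the 7. Upk1b was at 0 in all 12 libraries, Lrrn4 reached 0.633 CPM, Krt14 1.47 CPM and Upk3b 12.2 CPM, the last in small clones of mouse 5. The 6, Wt1 included, summed to 73.7 to 396 CPM in the 7 libraries and to 117 to 332 CPM in the 5. Wt1 itself was at 109 to 319 CPM in the 5, so it made up most of the sum there. The part of the mesothelium in the Wt1 level was not tested.

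Lhx1, a LIM homeobox gene required for the duct to form, had 257 counts in 9 of 12 libraries. It ran from 0 to 24.2 CPM in large clones (median 0.801) and from 0 to 16.0 CPM in small clones (median 0.461). Both libraries of mouse 6 were high, with 24.2 and 16.0 CPM, and small clones of mouse 3 had 9.18 CPM. No other library passed 3.71 CPM, and the groups overlapped.

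Emx2, a homeobox gene of the urogenital tract, had 73 counts in large clones and 12 in small clones. Its levels ran from 0 to 7.42 CPM in large clones (median 3.05) and from 0 to 1.40 CPM in small clones (median 0.644). The 3 libraries with the most Emx2 were large clones of mice 1, 3 and 5, but large clones of mice 2 and 6 held 0 and 0.195 CPM. The means were 3.49 ± 3.43 CPM and 0.606 ± 0.563 CPM (SD, n = 6 each), and the difference was not past the threshold (an exact permutation test on log2(CPM + 1), two-sided, gave p = 0.110).

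Pax2, the paired-box partner of Pax8 in the urogenital tract, went the other way: 11 counts in large clones and 136 in small clones. It ran from 0 to 2.06 CPM in large clones (median 0.451) and from 0.680 to 24.8 CPM in small clones (median 2.27). Small clones of mouse 3 held 68.0% of all Pax2 counts. The small clones were higher in 5 of 6 mice, and the ranges overlapped. The difference in mean log2(CPM + 1), large minus small, was -1.46 (exact permutation test, two-sided, raw p = 0.0346, 9 genes tested in this way after their counts were seen; the smallest p for 6 against 6 is 0.00217). With the mouse pairing, exact swaps within mice gave p = 0.0625, where the smallest possible is 0.0313. Leaving out 1 mouse at a time gave a difference of -1.78 to -1.13 and an exact permutation p of 0.0318 to 0.127. The 7 libraries alone gave -0.84 (exact permutation p = 0.286, smallest possible 0.0571) and the 5 alone -2.44 (exact permutation p = 0.200, the smallest possible), so neither set can reach 0.05. Pax2 did not pass the filter on low counts. In an edgeR fit with no filter, where 11.4% of 25369 genes had an unadjusted p under 0.05 and 5.15% were lower in large clones at that p, its p was 0.0364 and its adjusted p 0.419. No call was made on Pax2.

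**Figure D1:**
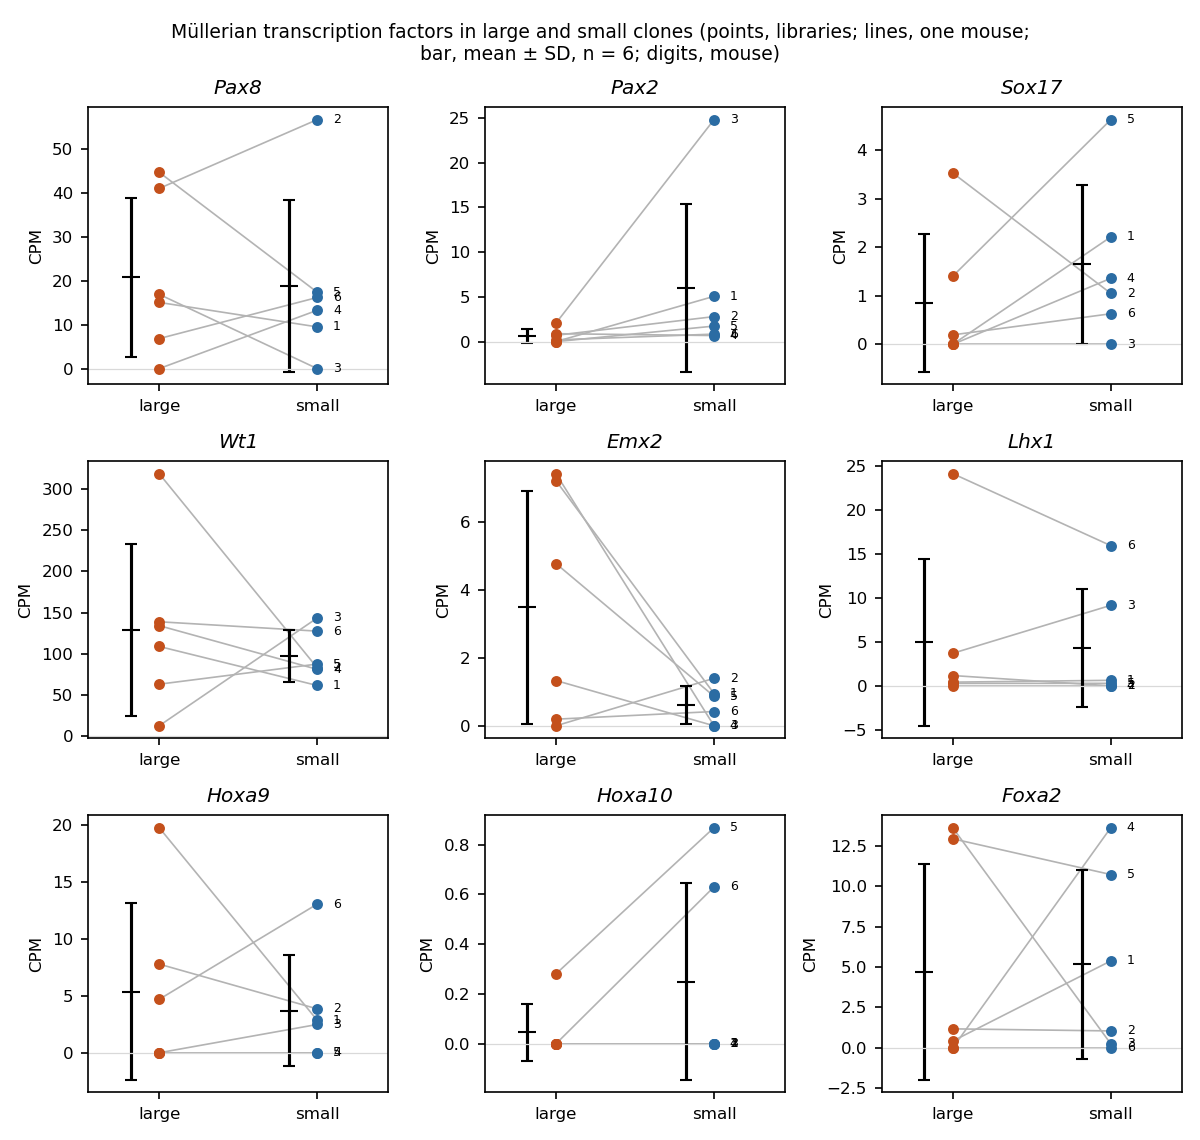
CPM of each of the 9 transcription factors (vertical axis) in the large and small clones of 6 mice (each point a library, with the group mean and SD). Large and small clones overlap for every gene, and 4 of the 6 small-clone Pax2 values lie above 1 CPM, against 1 of the 6 large-clone values.

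Pax8, the marker of secretory cells, ran from 0 to 44.7 CPM in large clones (median 16.0) and from 0 to 56.6 CPM in small clones (median 14.7). It was absent from large clones of mouse 4 and small clones of mouse 3, and highest in small clones of mouse 2. It was higher in the large clones of 3 mice and lower in those of the other 3. The means were 20.7 ± 18.2 and 18.8 ± 19.5 CPM (SD, n = 6 each).

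Sox17, an HMG-box gene also used in the endoderm and in vessels, had 54 counts in 8 of 12 libraries. It ran from 0 to 3.53 CPM in large clones (median 0.0975, counted in 3 of 6) and from 0 to 4.63 CPM in small clones (median 1.21, counted in 5 of 6). Sox17 was lower in the large clones of 4 mice, higher in 1 and at 0 in both libraries of 1, and the ranges overlapped. The difference in mean log2(CPM + 1), large minus small, was -0.58 (exact permutation test, two-sided, raw p = 0.292). Of 6 vessel markers, 3 were counted in 12 of 12 libraries: Pecam1 at 25.97 to 141 CPM, Kdr at 0.412 to 227 CPM and Emcn at 0.340 to 90.5 CPM. Cdh5 reached 1.90 CPM, Tek was counted in 2 libraries and Sox18 was at 0 in all 12. Kdr, a growth factor receptor of vessels, had an unadjusted p of 0.0492 in edgeR (log2 fold change 2.94, adjusted p 0.9998). Its highest level, 227 CPM, was in large clones of mouse 4, and its mean of 25.5 CPM was 7.14 CPM without that library. The 6 summed to 41.6 to 364 CPM in the 7 libraries and to 94.4 to 242 CPM in the 5, and their part in the Sox17 level was not tested.

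Foxa2, a forkhead gene, had 184 counts in 9 of 12 libraries. It ran from 0 to 13.6 CPM in large clones (median 0.801) and from 0 to 13.6 CPM in small clones (median 3.21). It had at least 5 CPM in 5 libraries, 2 in large clones and 3 in small clones, and 4 of these 5 libraries held no Hoxa9 count. All 5 were among the 7 libraries with a low chemoreceptor share. Hoxa9 was counted in only 2 of those 7, so its absence from 4 of the 5 is close to what that set gives. The 6 uterine gland markers summed to 0.340 to 10.3 CPM in the 7 libraries and 1.41 to 9.67 CPM in the 5.

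Hoxa9 had 242 counts in 7 of 12 libraries, with 0 in 5. Large clones ran from 0 to 19.7 CPM (median 2.34) and small clones from 0 to 13.0 CPM (median 2.66), and both groups held empty libraries. Hoxa10, its neighbour at 108 bases in the table's coordinates, had 1 count in large and 6 in small clones, in 3 of 12 libraries. Hoxa10 was within 3 counts in every library, so no difference could be detected at this depth. None of the 9 genes overlapped another gene of the table.

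**Figure D2:**
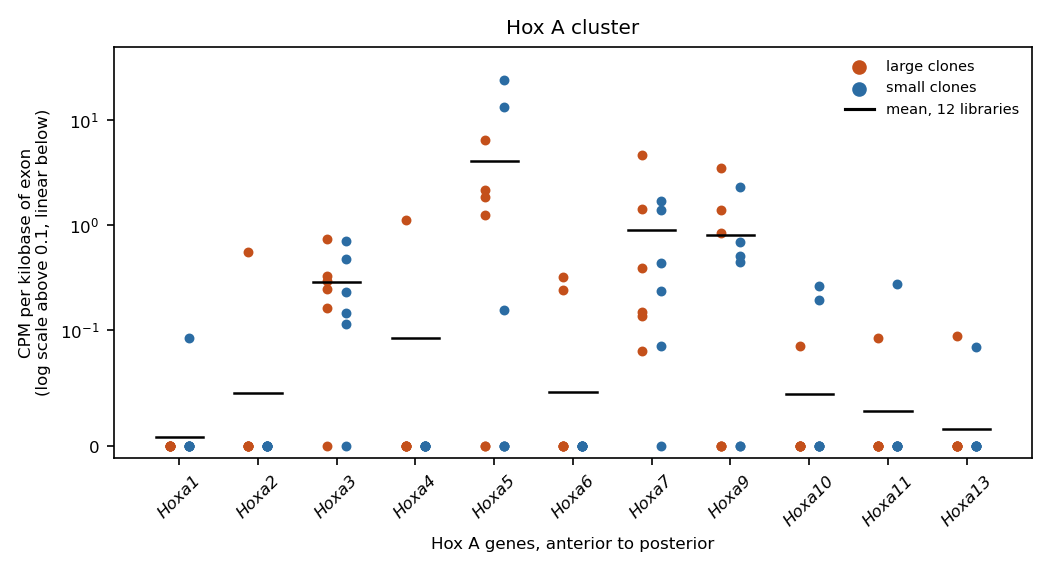
CPM per kilobase of exon (log scale above 0.1, linear below) of the 11 genes of the Hox A cluster, ordered from the anterior end, with 1 point per library and a bar for the mean of 12. Hoxa5, Hoxa7 and Hoxa9 carry most of the signal, and Hoxa10, Hoxa11 and Hoxa13 are near 0.

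Per kilobase of union exon, means were 4.12 CPM for Hoxa5, 0.890 for Hoxa7, 0.812 for Hoxa9 and 0.287 for Hoxa3, and the other 7 genes had at most 0.0929. Hoxa10, Hoxa11 and Hoxa13, the genes used in uterus, cervix and vagina, had 7, 4 and 2 counts. Hoxa5 was highest in small clones of mice 3 and 6, and Hoxa9 in large clones of mouse 1. Single libraries weighed on these means: Hoxa5 was at 2.30 without small clones of mouse 6, and Hoxa7 at 0.549 without large clones of mouse 4, close to Hoxa9 at 0.565 without its own highest library. The order also differed between the sets of libraries. In the 7 with a low chemoreceptor share, means per kilobase were 1.22 CPM for Hoxa7, 0.941 for Hoxa5, 0.227 for Hoxa3 and 0.171 for Hoxa9. In the 5 they were 8.57 CPM for Hoxa5, 1.71 for Hoxa9, 0.426 for Hoxa7 and 0.370 for Hoxa3.

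Per kilobase of union exon, the 9 genes ordered as Wt1 (18.3 ± 12.2 CPM, SD, n = 12), Pax8 (3.26 ± 2.97), Foxa2 (2.08 ± 2.52), Lhx1 (1.14 ± 1.93), Hoxa9 (0.812 ± 1.11), Emx2 (0.682 ± 0.927), Pax2 (0.613 ± 1.28), Sox17 (0.262 ± 0.318) and Hoxa10 (0.0454 ± 0.0907). Wt1 exceeded Pax8 in 11 of 12 libraries, with a difference of 15.0 ± 12.2 CPM per kilobase. For every later pair of neighbours in that order, the SD of the difference was larger than its mean. In the 7 libraries with a low chemoreceptor share, the lower part of the order changed: Lhx1 was at 0.172 CPM per kilobase and Hoxa9 at 0.171, below Emx2 (0.797), Pax2 (0.349) and Sox17 (0.319). Wt1 (12.04), Pax8 (3.73) and Foxa2 (3.45) stayed the first 3 there. In the 5 libraries with a high share, Wt1 (27.0) and Pax8 (2.61) came first, followed by Lhx1 (2.50) and Hoxa9 (1.71). Foxa2 did not keep its place in those 5: it was at 0.156, below Pax2 (0.98), Emx2 (0.52) and Sox17 (0.183). Without small clones of mouse 3, Pax2 was at 0.252, and without large clones of mouse 6, Lhx1 was at 0.707. In large clones of mouse 4, 98.4% of the 9 genes' CPM was Wt1 and only 3 of the 9 were counted. In large clones of mouse 3 it was 22.1%.

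**Figure D3:**
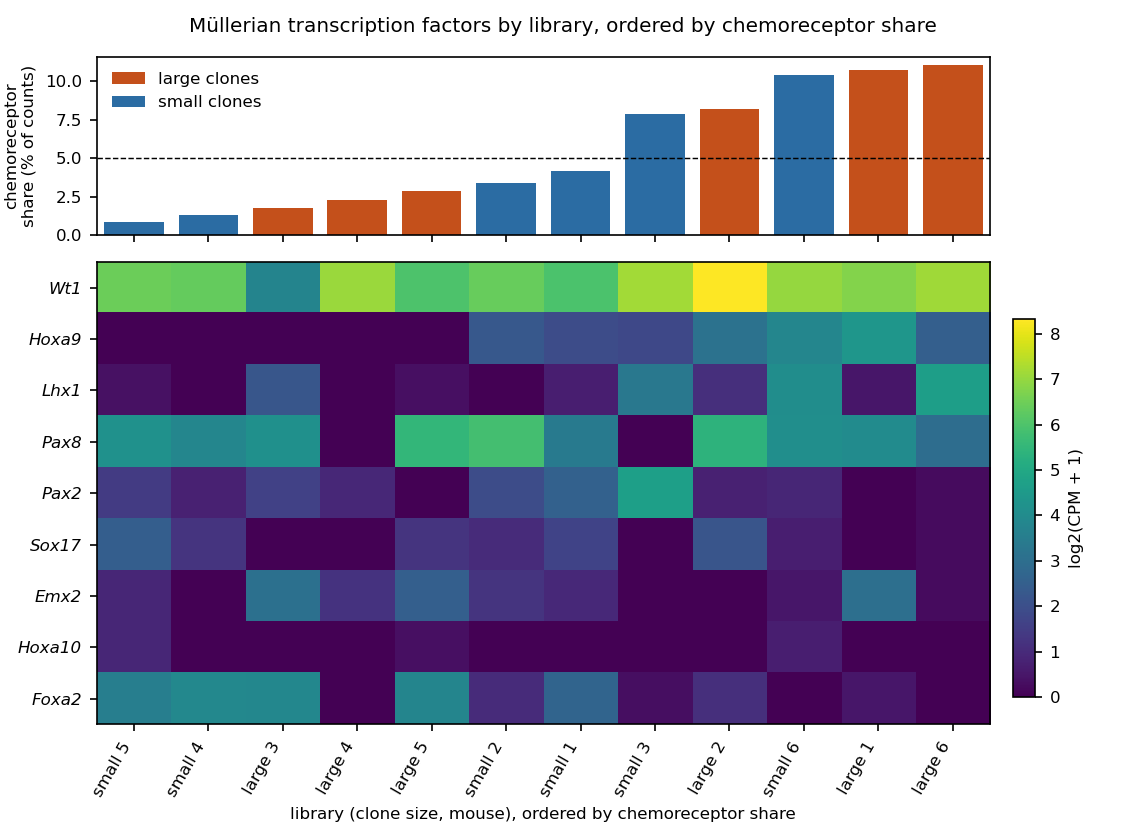
Log2(CPM + 1) of the 9 transcription factors (rows, colour scale) in the 12 libraries, ordered by the percent of counts on chemoreceptor genes (bars above). Wt1 is present in every library, and Hoxa9 in all 5 libraries with a share of 5% or over.

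Only Wt1, Pax8 and Hoxa9 passed the filter on low counts, which 42.8% of genes with a count did. The question the design puts is whether expression differs with clone size. In edgeR's quasi-likelihood test with Benjamini-Hochberg adjustment over 10848 genes, 0% were called at an adjusted p under 0.05 and 2.54% (275 genes) had an unadjusted p under 0.05. DESeq2 called 0.0461% of the genes without the mouse block and 0.387% with it. None of the 3 was among them, although without the block DESeq2 gave Hoxa9 no adjusted p. The adjusted p was 0.9998 for all 3 genes. Wt1 had a log2 fold change, large against small, of 0.41 (SE 0.62, 95% interval -0.91 to 1.73), Pax8 of 0.14 (SE 1.18, -2.38 to 2.66) and Hoxa9 of 0.54 (SE 1.41, -2.46 to 3.54). The intervals of Pax8 and Hoxa9 do not exclude a change of severalfold either way. That of Wt1 reaches further above 0 than below it, but the direction was not the same on every scale. The Wt1 difference in mean log2(CPM + 1), large minus small, was -0.05 (exact permutation test, two-sided, raw p = 0.950). With the mouse block, the edgeR log2 fold change of Wt1 was 0.09. These data do not show that the genes are alike in both groups. The biological coefficient of variation was 79.3% for Wt1, 133% for Pax8 and 177% for Hoxa9.

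**Figure D4:**
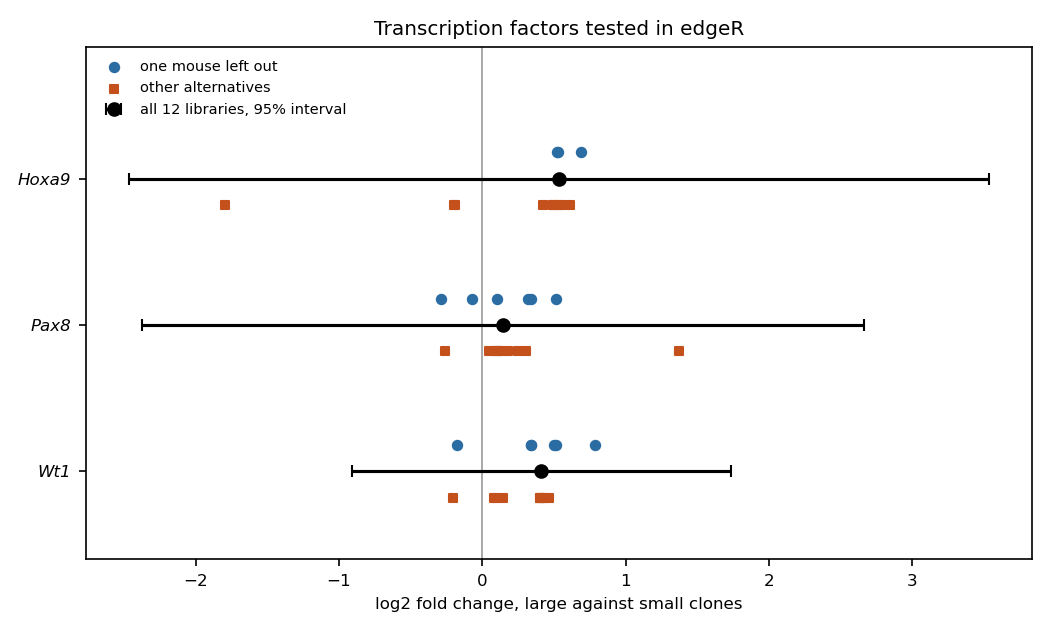
Log2 fold change, large against small clones, of the 3 genes tested in edgeR (black points, 95% intervals), with the values after leaving out 1 mouse (circles above) and under the other alternatives (squares below). All intervals cover 0, and that of Wt1 is the narrowest, from -0.91 to 1.73.

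The sign of the fold change was not stable. Wt1 was -0.18 without mouse 2 and -0.20 in the 7 libraries alone, Pax8 was -0.26 in those 7, -0.07 without mouse 3 and -0.29 without mouse 5, and Hoxa9 turned to -0.19 when mouse entered as a block. With a covariate for the chemoreceptor share, Hoxa9 was at -1.79. None of these was past the threshold.

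Levels of Wt1, Hoxa9 and Lhx1 tended to be higher, and of Foxa2 lower, where the chemoreceptor share was high, given here as a description without a test. On TMM-scaled CPM none of the 9 genes separated the 5 libraries from the 7, while 8.62% of the tested genes were above in all 5 and 9.98% below in all 5. Wt1 ran from 109 to 319 CPM (median 139) in the 5 libraries and from 12.4 to 134 CPM (median 81.0) in the 7, overlapping only in large clones of mouse 4. With CPM from total counts, the ranges were 137 to 357 and 9.06 to 89.3 CPM, so all 5 libraries lay above the 7. The same held for 12.5% of the 10848 tested genes, and genes below in all 5 were not counted on this scale. Hoxa9 was counted in 5 of 5 (2.48 to 19.7 CPM) against 2 of 7 (0 to 3.85 CPM). Lhx1 was counted in 5 of 5 (0.424 to 24.2 CPM) against 4 of 7 (0 to 3.71 CPM). Foxa2 went the other way, with 0 to 1.18 CPM (median 0.248) in the 5 and 0 to 13.6 CPM (median 10.7) in the 7. Pax8, with medians of 15.1 and 16.9 CPM, did not order the libraries in this way. Markers of other cells moved as well. The 6 immune markers summed to 19.1 to 261 CPM (median 106) in the 5 libraries and to 0.444 to 28.9 CPM (median 20.9) in the 7. The T-cell gene Cd3e was at 10.4 to 177 CPM in the 5 and 0 to 17.98 CPM in the 7. Ptprc was at 2.73 to 57.1 and 0 to 4.21 CPM, Cd79a at 2.23 to 11.5 and 0 to 8.85 CPM. Csf1r was at 3.72 to 22.1 and 0 to 18.8 CPM. Lyz2 went the other way, at 0 to 4.24 and 0 to 22.7 CPM, and the macrophage gene Adgre1 reached 0.636 CPM. The 6 stromal markers summed to 15.8 to 121 and 37.1 to 521 CPM, and the 6 smooth muscle markers to 1.68 to 49.6 and 11.9 to 215 CPM. Dcn, a matrix gene of the stroma, had an unadjusted p of 0.0488 between large and small clones in edgeR (log2 fold change 3.41, adjusted p 0.9998). Large clones of mouse 4 alone held 280 CPM of Dcn, whose mean of 31.7 CPM was 9.11 CPM without that library. Of the other stromal markers tested, Col3a1 had a log2 fold change of 1.99, Col1a1 of -0.81 and Col1a2 of -1.16. The part of these cell types and of the chemoreceptor share in the levels of the 9 genes was not tested.

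**Figure D5:**
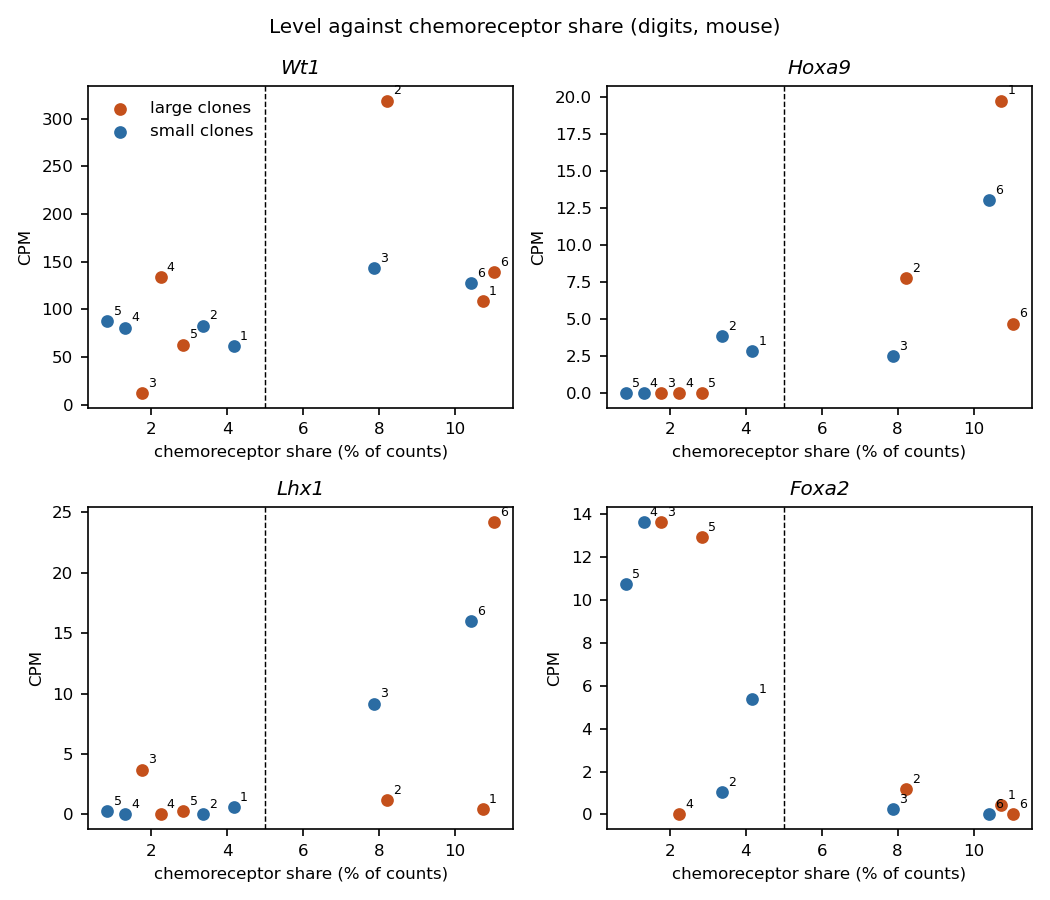
CPM of Wt1, Hoxa9, Lhx1 and Foxa2 against the percent of counts on chemoreceptor genes, 1 point per library (digits, mouse; dashed line, 5%). The 5 libraries at 7.87% or more all contain Hoxa9, and none of them has more than 1.18 CPM of Foxa2.

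Of 26 other regulators of the Müllerian duct, all were in the table and 13 were tested. None was called and none had an unadjusted p under 0.05. Of the 13, 11 had a higher fitted value in large clones and 2 a lower one, with a median log2 fold change of 0.74 against 0.06 over all tested genes. The 26 summed to 1340 to 1987 CPM in the 5 libraries with a high chemoreceptor share and to 862 to 1440 CPM in the 7. Wnt4, a signal required for the duct to form, had the highest mean level at 753 CPM (log2 fold change 0.06, SE 0.44). Esr1, the estrogen receptor, was at 81.6 CPM and Vangl2, a planar polarity gene, at 78.4 CPM. Posterior Hox genes of the other clusters were 10, of which 4 were tested, with 1 higher and 3 lower. Hoxd11 had a mean of 20.6 CPM, Hoxd8 14.4 CPM and Hoxc8 13.4 CPM. Large clones of mouse 2 alone held 122 CPM of Hoxd11, whose mean without that library was 11.4 CPM. None of the 9 other Hox A genes passed the filter, and the best counted were Hoxa5 (7.73 CPM), Hoxa7 (2.56 CPM) and Hoxa3 (1.72 CPM).

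Close paralogs of the 9 genes were 13, of which 5 were tested, with 2 higher and 3 lower and none with an unadjusted p under 0.05. Pax6, an eye and brain gene, was counted in 12 of 12 libraries at 29.2 to 355 CPM. Per kilobase its mean was 13.9 CPM, against 3.26 CPM for Pax8. Foxa3 had a mean of 31.5 CPM and Pax3 of 18.2 CPM. A list of 9 antisense RNAs and neighbours of these loci was searched by symbol. None of them was in the table, so they could not be analysed.

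The genes most like each tested factor over 12 libraries were listed by Spearman's rho of log2(CPM + 1), as a description. For Pax8 they were Ankrd27 (rho 0.893), Coro7 (0.883) and Arpc5 (0.879). For Wt1 they were Polb (0.944), Smg1 (0.930) and Myt1l (0.923). For Hoxa9 they were Slc13a1 (0.957), Cd9 (0.950) and the olfactory receptor Olfr982 (0.950), which is itself counted in the chemoreceptor share. The points share library depth and composition, and the 3 genes were the highest of 10848.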

How the data were processed

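RNA of 12 laser-cut pools of 200 cells was amplified from poly(A), and libraries were built with Nextera XT reagents, per the labels' protocols. The authors deposited a single table of RSEM-style expected counts, 1 row per gene, and RSEM, Bowtie2 and GRCm38 are named in the submitters' processing notes without versions. The gene starts in the table match GENCODE M21 of GRCm38 in 2.96% of 35491 genes, so its coordinates are those of a build it does not name. Of all entries 22.7% were not whole, and 1 of 108 entries of the 9 genes. One row without a symbol held 0.133% of counts and was kept.

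Expected counts were rounded and tested with edgeR 4.0.16 in R 4.3.3 (TMM, filterByExpr, quasi-likelihood test, Benjamini-Hochberg adjustment at 0.05), with no term for mouse. CPM uses TMM-scaled library sizes, and per-kilobase values the union exon length of GENCODE M21 matched by gene ID. Exact permutation tests used log2(CPM + 1), with a pseudocount of 1 CPM. Alternatives were DESeq2 1.42.0, a mouse block, other scalings and filters, libraries left out and the chemoreceptor share.

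Both libraries of a number come from 1 mouse, per the labels, so the numbers pair them. Their deviations from the group means correlated at -0.016, -0.010, -0.37, 0.27, 0.51 and 0.63 for mice 1 to 6. Without a mouse term, edgeR, DESeq2 and the permutations of all 12 libraries ignore the pairing, and their p-values measure the spread between libraries. The swaps within mice and the fits with a mouse block measure the spread of the differences within these 6 mice.

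All 9 genes are reported. Of the lists of duct regulators, other Hox A genes, posterior Hox genes and close paralogs, the 3 genes with the highest mean CPM and any with an unadjusted p under 0.05 are named. Cell-type markers were named after their values were seen. For each tested factor, the 3 genes with the highest rho are named. The genes and lists were chosen with earlier results of these data known. Promoter sequences are from RefSeq (GRCm38.p6). Figures were drawn with matplotlib 3.10.9.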

Additional observations from a re-analysis of the deposited data

Results flagged for a closer look

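Hoxa10 in large clones was set by 1 library. Mouse 5 had 0.281 CPM, which is 1 count and within the limit of 3 counts, and the other 5 libraries had 0. The gap to the nearest value divided by the range was 1.0, above the 95% limit of Dixon's test for 6 values. With 5 values at 0, any count in the remaining library gives 1.0, so the mark follows from the zeros and no conclusion is drawn from it. Of 18 groups searched, 1 was marked. The rate of about 1 in 20 by chance assumes normal values and does not hold for counts mostly at 0.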

How the results depend on the processing

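None of the 9 genes, where it was tested, was called in any of the 16 alternatives. Genes with an adjusted p under 0.05 numbered 5 with DESeq2 and 42 with DESeq2 and the replicate block, against 0 in edgeR. Genes with an unadjusted p under 0.05 numbered 275 in edgeR, 535 with DESeq2, 1134 with DESeq2 and the block, 2880 with no filter, 524 with the chemoreceptor share as a covariate, 560 in the 7 libraries with a low share, 685 in the 5 with a high share, and 180 to 492 without 1 mouse. The Pax8 log2 fold change was -0.26 in the 7 libraries and -0.29 to 0.51 without 1 mouse (-0.07 without mouse 3, -0.29 without mouse 5). That of Wt1 was -0.20 in the 7 libraries and -0.18 to 0.79 without 1 mouse. That of Hoxa9 was -0.19 with the mouse block in edgeR, -0.19 with the block in DESeq2 and -1.79 with the covariate. Hoxa9 could not be tested in 4 of the 16 alternatives, where it did not pass the filter. The block changed no call of the 9 genes in edgeR, and the causes of these shifts were not tested. The Pax2 difference was no longer past 0.05 with swaps within mice, without mouse 1, 2, 5 or 6, and in either set of libraries. Wt1 per kilobase was 36.7 CPM with the longest transcript as length. Of the 9 genes, Wt1 and Pax8 alone had 10 counts or more in at least 10 libraries, and low counts limit the others. Pax8 was limited as well, with a biological coefficient of variation of 133%. The part of depth in the low counts was not tested.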
